A study of Mus musculus with 4 samples.

Results

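Macrophage genes were followed in whole sarcomas of mice that carry a mutant p53, with and without arsenic trioxide (ATO). The 10 genes, taken by symbol from a table of 56691, were Csf1r, Adgre1, Cd68, Mrc1, Cd163, C1qa, C1qb, C1qc, Lyz2 and Itgam, and the rule that picks them uses the symbol and no measured value. All 4 samples were bulk RNA-seq of sarcoma tissue from W/+ mice, which model Li-Fraumeni syndrome, the inherited cancer predisposition caused by mutant p53. The labels give the genotype as p53R282W/+, that is, 1 mutant and 1 wild-type copy of the p53 gene, in both groups. The mutation is named by its residue in human p53, R282W. The 2 treated sarcomas (ATO 1 and ATO 2) came from mice given ATO in their drinking water until death, and PBS is the treatment named for the other 2 (PBS 1 and PBS 2). The mutant allele is in the germ line, so that the macrophages inherited it as well as the cells that gave rise to the tumor. Tumors of bone, of soft tissue and of vessels all arise in this line, per the study, but the type of each of these 4, the age of each mouse and whether each sarcoma came from a separate mouse are not given in the labels. The p-values therefore measure the spread between these samples. The labels of all 4 samples also give a culture protocol for cells with dexamethasone and insulin, which the study's methods do not describe for the sarcomas.

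Macrophages are phagocytes that arise from embryonic precursors or from blood monocytes and enter most solid tumors in large numbers. They depend on the receptor Csf1r and its ligands Csf1 and Il34, and the transcription factor PU.1 (Spi1) sets their lineage. They clear dying cells and debris, make the C1q chains that start the classical complement pathway, and carry scavenger receptors such as Mrc1 (CD206) and Cd163, which are often used as markers of one class of tumor macrophage.

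Total counts ranged from 15259695 to 18134000 a sarcoma. A count of 0 allows up to 3 counts, or between 0.151 and 0.240 CPM (counts scaled to a fixed total), which covers counting error only. Every macrophage gene lay far above that limit, the lowest count being 204 (Cd163 in PBS 2). The pan-leukocyte gene Ptprc, PU.1 and the immune adaptors Tyrobp and Fcer1g, none of which is particular to macrophages, were detected in all 4 sarcomas, with FPKM (counts scaled to exon length and to the total of the sarcoma) of at least 4.12. ATO 2 stood apart from the others by its mitochondrial genes, which took 14.7% of its counts (95% Wilson interval 14.7% to 14.8%, for counting error only) against 1.98% to 2.59% elsewhere. Results are therefore also given without it.

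PU.1 is known to bind the promoters of many myeloid genes. RefSeq windows of the 250 bases before the start site, on GRCm38.p6, were used for 7 of the 10 genes. No window was at hand for C1qa and Adgre1, and Csf1r was left out of this count. The matches below therefore do not describe all 10 genes, and whether Csf1r would have held one is not reported. The PU.1 core GAGGAA, or its reverse complement TTCCTC, was found by letters alone in 5 of these 7 windows (C1qb, C1qc, Cd68, Itgam and Mrc1), beside 7639 of 32851 windows of the same length over all genes (23.3%). Windows of 4 genes are shown because the results turn on the steady ratio of C1qc to C1qb and on the departures of Lyz2 and Itgam. Each is on the strand of its gene, 5′ to 3′ and ending at the base before the RefSeq start site, with matches in capitals. The gene positions given further below are those of GENCODE M21, whose start sites can differ. The C1qc and Lyz2 windows reach into the genes as placed there. They lie at chr4:136886201-136886450 (minus strand) for C1qb, chr4:136892915-136893164 (minus) for C1qc, chr7:128062390-128062639 (plus) for Itgam and chr10:117282273-117282522 (minus) for Lyz2.
C1qb: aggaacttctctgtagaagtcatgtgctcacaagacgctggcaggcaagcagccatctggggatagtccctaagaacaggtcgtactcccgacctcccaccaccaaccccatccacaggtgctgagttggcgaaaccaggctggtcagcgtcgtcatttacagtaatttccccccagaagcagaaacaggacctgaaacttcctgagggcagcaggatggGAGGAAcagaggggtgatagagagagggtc
C1qc: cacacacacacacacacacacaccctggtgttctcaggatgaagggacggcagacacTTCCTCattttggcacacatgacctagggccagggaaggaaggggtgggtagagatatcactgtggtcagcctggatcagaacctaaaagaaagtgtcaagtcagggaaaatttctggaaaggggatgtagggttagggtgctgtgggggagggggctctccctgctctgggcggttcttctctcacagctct
Itgam: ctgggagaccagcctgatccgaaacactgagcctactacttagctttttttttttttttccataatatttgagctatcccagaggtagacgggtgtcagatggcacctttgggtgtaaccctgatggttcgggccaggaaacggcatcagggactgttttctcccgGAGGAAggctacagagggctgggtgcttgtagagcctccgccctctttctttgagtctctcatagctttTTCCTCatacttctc
Lyz2: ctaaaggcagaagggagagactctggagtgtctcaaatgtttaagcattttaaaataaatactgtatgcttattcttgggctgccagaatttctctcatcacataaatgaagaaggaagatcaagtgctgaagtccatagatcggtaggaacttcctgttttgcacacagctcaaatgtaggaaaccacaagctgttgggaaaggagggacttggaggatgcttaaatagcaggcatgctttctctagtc
C1qb and C1qc each held 1 match and Itgam held 2. The Lyz2 window held none, which says only that these letters are not in this stretch.

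In the comparison of treated with control sarcomas, all 10 macrophage genes had a higher fitted level in ATO, but none passed the test. Their median log2 fold change was 0.82 in edgeR, where the median of all 17188 genes tested was -0.016 and 8450 of them (49.2%) were fitted higher. The single genes ranged from 0.59 (Csf1r) to 1.77 (Lyz2), with edgeR adjusted p from 0.700 to 0.850. By edgeR's quasi-likelihood test with Benjamini-Hochberg adjustment, 0 of the 10 passed an adjusted p of 0.05, as did 0 of all genes tested (0%). At an unadjusted p under 0.05 edgeR gave 0 of the 10, the smallest being 0.184 for Cd163, and 1463 of all genes (8.51%). DESeq2 called 0 of the 10 and 753 of 18295 genes (4.12%), and limma on log2 FPKM also called 0 of the 10. Sarcomas of 1 group differed by a biological coefficient of variation of 62.5%, and an exact permutation test of 2 against 2 cannot give a p below 0.333. In bulk tissue, a difference in these genes cannot be told apart between more macrophages and more RNA per macrophage.

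PBS 2 had the lowest TMM-normalized CPM of the 4 sarcomas for 8 of the 10 genes, all but Lyz2 and Itgam. ATO 2 had the highest for 7, and ATO 1 for the other 3 (Csf1r, Mrc1 and Cd163). In single pairs, ATO 1 lay above PBS 1 in 4 of 10 genes (median log2 ratio -0.089) and above PBS 2 in 8 (median 1.28). ATO 2 lay above PBS 1 in 8 (median 0.55) and above PBS 2 in 10 (median 1.89). The SD of these 4 medians was 0.86, larger than the median fold change itself. The pairs share sarcomas, so the medians are not independent and this SD is not a standard error of the fold change. Between ATO 1 and PBS 1 the genes went both ways, from a log2 ratio of -1.22 for Lyz2 and -0.78 for Adgre1 to 1.35 for Cd163, and treated and control sarcomas overlapped in most of the genes.

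Both ATO sarcomas lay above both PBS sarcomas in 2 of the 10 genes, Csf1r and C1qc, on TMM-normalized CPM, where this held for 19.7% of all genes tested. They lay below in 0, against 20.2% of all genes. On FPKM, which is scaled to total counts, they lay above in 0 of 10 (12.8% of all genes) and below in 0 (29.6%). The count of 2 genes above became 8 without ATO 1, 4 without ATO 2, 8 without PBS 1 and 2 without PBS 2. With 1 sarcoma in a group such an order is met more easily. The share over all genes was not computed there, so these counts have no background and say nothing particular about the macrophage genes. The median log2 fold change was 1.09, 0.46, 1.75 and 0.35 without the same sarcomas in turn.

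**Figure D1:**
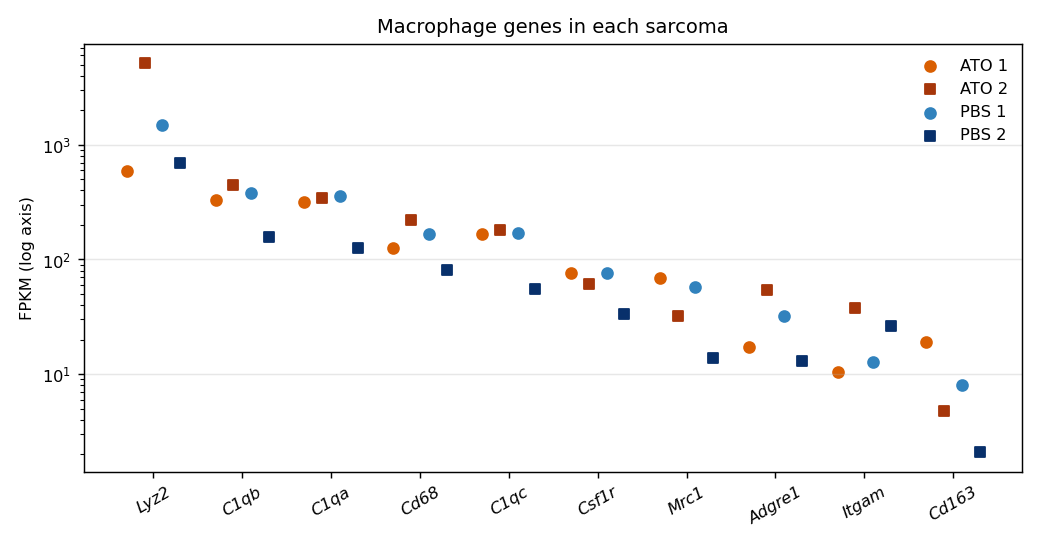
FPKM of the 10 macrophage genes (horizontal axis) on a log axis, with 1 point for each of the 4 sarcomas (2 ATO, 2 PBS). Lyz2 in ATO 2 stands at 5115 and the groups overlap for all 10 genes.

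**Figure D2:**
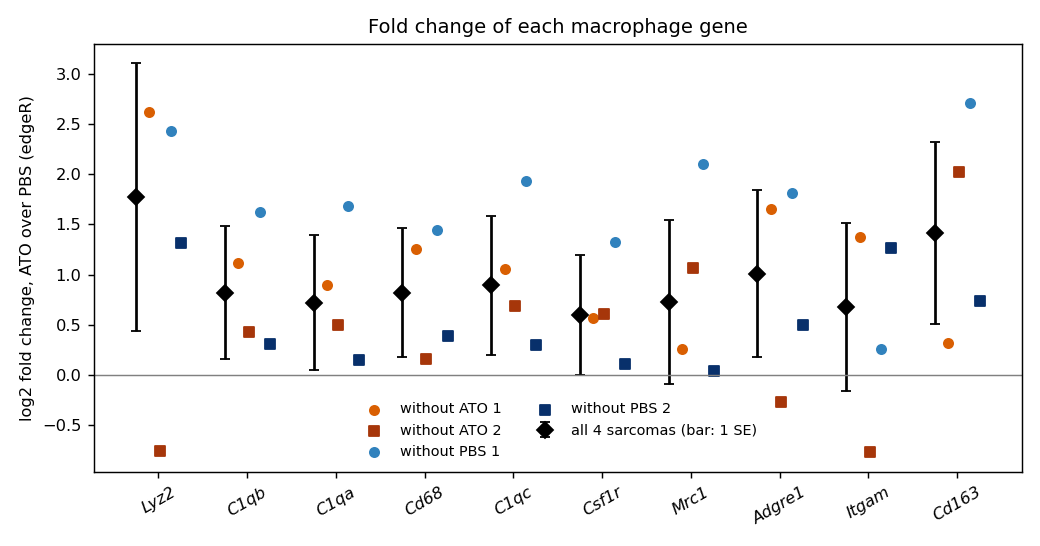
Log2 fold change of ATO over PBS by edgeR for each macrophage gene, with bars of 1 SE, and the 4 values obtained when each sarcoma was left out in turn. All 10 fitted values are above 0, and those of Adgre1, Lyz2 and Itgam turn below 0 without ATO 2.

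C1qa, C1qb and C1qc encode the A, B and C chains of C1q, the recognition part of the first complement component, which binds antibody and dying cells. They lie side by side on the minus strand of chromosome 4 within 18675 bases of GRCm38, C1qa (ENSMUSG00000036887) at 136895917 to 136898803, C1qb (ENSMUSG00000036905) at 136880129 to 136886187 and C1qc (ENSMUSG00000036896) at 136889804 to 136893065. The FPKM of C1qb was 331 in ATO 1, 443 in ATO 2, 383 in PBS 1 and 156 in PBS 2. For C1qa it was 314 and 343 in ATO and 360 and 126 in PBS. For C1qc it was 168 and 179 in ATO and 172 and 55.7 in PBS. In all 3 genes PBS 2 alone was low, and PBS 1 lay at the level of the ATO sarcomas. The ATO sarcomas averaged 474 ± 163 CPM of C1qb (SD, n = 2) and the PBS sarcomas 268 ± 162 (SD, n = 2), which edgeR fitted as a log2 fold change of 0.82 with SE 0.67 and adjusted p 0.758. C1qa had 0.72 (SE 0.67) and C1qc 0.89 (SE 0.69). Without PBS 2 the values were 0.31 for C1qb, 0.14 for C1qa and 0.29 for C1qc, and without PBS 1 they were 1.63, 1.68 and 1.94. Without ATO 2 they were 0.42, 0.49 and 0.69 in the same order. C1qc was 1 of the 2 genes whose groups did not overlap on TMM-normalized CPM, with 322 and 424 in ATO and 304 and 97.4 in PBS.

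The chains kept close to a fixed proportion in every sarcoma. The FPKM of C1qa relative to that of C1qb was 0.948 in ATO 1, 0.774 in ATO 2, 0.940 in PBS 1 and 0.810 in PBS 2, so that the highest ratio was 1.23 times the lowest. For C1qc relative to C1qb the ratio lay between 0.358 and 0.506, a span of 1.41 times. C1qb itself spanned 3.85 times over the sarcomas on TMM-normalized CPM. Cd68, which lies on another chromosome, also stayed near a fixed share of C1qb (0.380 and 0.503 in ATO, 0.431 and 0.520 in PBS, a span of 1.37 times).

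Csf1r (ENSMUSG00000024621; GRCm38 chromosome 18, 61100598 to 61132149, plus strand) encodes the tyrosine kinase receptor that macrophages need to survive and divide. Its FPKM was 76.1 in ATO 1, 61.7 in ATO 2, 76.2 in PBS 1 and 33.3 in PBS 2. PBS 1 and ATO 1 were nearly equal on this measure, and PBS 2 was low. On TMM-normalized CPM the ATO sarcomas stood at 438 and 435, just above PBS 1 at 404 and well above PBS 2 at 174. In edgeR the log2 fold change was 0.59 (SE 0.60) with adjusted p 0.809. It was 0.60 without ATO 2, 0.11 without PBS 2 and 1.33 without PBS 1. Csf1r shares exon positions with Hmgxb3 on the opposite strand, which had 299 to 665 counts against at least 3456 for Csf1r. Whether the counting used strand is not given in the sources used here.

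Of the ligands of Csf1r, Csf1 had FPKM of 56.0 and 12.2 in ATO and 44.2 and 17.4 in PBS, with overlapping groups (log2 fold change 0.33, edgeR adjusted p 0.937). Il34, the alternative ligand, was lower in both ATO sarcomas than in both PBS sarcomas, with FPKM of 4.42 and 5.62 against 16.2 and 9.57. The difference, a log2 fold change of -1.07 (SE 0.54), did not pass in edgeR (adjusted p 0.639). The ligands thus did not share the order of the receptor over the sarcomas, ATO 2 being lowest for Csf1 and ATO 1 lowest for Il34.

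Adgre1 (ENSMUSG00000004730; chromosome 17, 57358691 to 57483527, plus strand) encodes F4/80, the surface protein most used to mark mouse macrophages. Its FPKM was 17.2 in ATO 1, 53.9 in ATO 2, 32.1 in PBS 1 and 13.1 in PBS 2. ATO 2 was the high sarcoma, and ATO 1 lay between the PBS values. CPM averaged 134 ± 112 (SD, n = 2) in the ATO sarcomas and 66.9 ± 40.3 (SD, n = 2) in the PBS sarcomas. The fold change on the log2 scale was 1.01 (SE 0.83), with adjusted p 0.763 in edgeR, and became -0.27 without ATO 2.

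Cd68 (ENSMUSG00000018774; chromosome 11, 69664213 to 69666153, minus strand) encodes a heavily glycosylated protein of the lysosome membrane. It had an FPKM of 126 in ATO 1, 223 in ATO 2, 165 in PBS 1 and 80.8 in PBS 2. Its groups overlapped, PBS 1 standing above ATO 1, and edgeR gave a log2 fold change of 0.82 with SE 0.64 and adjusted p 0.747. It was 0.16 without ATO 2 and 1.44 without PBS 1.

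Mrc1 (ENSMUSG00000026712; chromosome 2, 14229392 to 14332057, plus strand) encodes the mannose receptor, and Cd163 (ENSMUSG00000008845; chromosome 6, 124304656 to 124330527, plus strand) the receptor that takes up haemoglobin bound to haptoglobin. Unlike Lyz2 and Itgam, both were highest in ATO 1. The FPKM of Mrc1 was 68.5 in ATO 1, 32.4 in ATO 2, 57.3 in PBS 1 and 13.9 in PBS 2. That of Cd163 was 18.9, 4.79, 8.04 and 2.08 in the same order. For each gene PBS 1 lay above ATO 2 and PBS 2 was the lowest. Cd163 spanned 10.0 times over the sarcomas on TMM-normalized CPM, and Mrc1 spanned 5.43 times. In edgeR the log2 fold changes were 0.73 for Mrc1 (SE 0.82, adjusted p 0.832) and 1.41 for Cd163 (SE 0.91, adjusted p 0.700). That of Mrc1 was 0.034 without PBS 2 and 2.10 without PBS 1, and that of Cd163 was 0.32 without ATO 1 and 2.71 without PBS 1. Without ATO 2 Mrc1 had 1.07 and Cd163 had 2.03.

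The FPKM of Cd163 relative to Mrc1 reached 0.276 in ATO 1 and 0.140 to 0.150 elsewhere. Mrc1 relative to C1qb was 0.207 in ATO 1, 0.0732 in ATO 2, 0.150 in PBS 1 and 0.0892 in PBS 2. The sarcomas with more Mrc1 for their C1qb were thus 1 treated and 1 control. Mrc1 is also made by lymphatic endothelium, whose other markers (Prox1, Flt4, Ccl21a and Stab2) had a summed FPKM of 19.1 in ATO 1, 57.3 in ATO 2, 5.36 in PBS 1 and 361 in PBS 2. Ccl21a made up most of that sum in PBS 2, with 316. The part of lymphatic endothelium in the level of Mrc1 was not tested.

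Lyz2 (ENSMUSG00000069516; chromosome 10, 117277331 to 117282321, minus strand) encodes lysozyme M, an enzyme that cuts bacterial cell walls and is made by macrophages, monocytes and neutrophils. Its FPKM was 594 in ATO 1, 5115 in ATO 2, 1497 in PBS 1 and 698 in PBS 2, the highest of the 10 genes in every sarcoma. ATO 2 stood far above the rest and ATO 1 was the lowest of all, so that the treated sarcomas enclosed both controls. Lyz2 took 102710 counts in ATO 2 and 14183 in ATO 1. Its CPM averaged 4505 ± 5269 in the ATO sarcomas (SD, n = 2) and 1321 ± 691 in the PBS sarcomas (SD, n = 2). EdgeR fitted a log2 fold change of 1.77 with SE 1.34 and adjusted p 0.738, and -0.76 without ATO 2. Of 1267 distinct stretches of 50 bases in the Lyz2 exons, 15.4% also occur in its neighbour Lyz1, which had 22 to 197 counts, so the counts of both are uncertain where reads were shared.

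Itgam (ENSMUSG00000030786; chromosome 7, 128062640 to 128118491, plus strand) encodes CD11b, the alpha chain of a β2 integrin of macrophages, monocytes and neutrophils. Its FPKM was 10.4 in ATO 1, 38.0 in ATO 2, 12.9 in PBS 1 and 26.2 in PBS 2. ATO 2 and PBS 2 were the high sarcomas, an order that none of the other 9 genes had. EdgeR fitted a log2 fold change of 0.68 with SE 0.84 and adjusted p 0.850, and -0.77 without ATO 2. Its beta chain partner Itgb2 had FPKM of 33.1 and 123 in ATO and 30.7 and 74.9 in PBS, so that the ratio of Itgam to Itgb2 stayed between 0.309 and 0.419. Gm49368 shares exon positions with Itgam on the same strand and had 6 to 65 counts, where Itgam had at least 946.

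Relative to C1qb in the same sarcoma, Itgam and Lyz2 varied most of the 9 genes compared with it. Itgam was 0.0314 times C1qb in ATO 1, 0.0859 in ATO 2, 0.0336 in PBS 1 and 0.169 in PBS 2. Lyz2 was 1.80 times C1qb in ATO 1, 11.5 in ATO 2, 3.91 in PBS 1 and 4.49 in PBS 2, a span of 6.43 times. Cd163 spanned 5.28 times, Mrc1 2.83, Adgre1 2.35 and Csf1r 1.65. The neutrophil list, whose cells also make Lyz2 and Itgam, had a summed FPKM of 1932 in ATO 1, 880 in ATO 2, 141 in PBS 1 and 5887 in PBS 2. S100a8 and S100a9 made up most of the sum in each sarcoma, while Mpo, Elane, Camp and Ltf were highest in ATO 1. The part of neutrophils in the levels of Lyz2 and Itgam was not tested.

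**Figure D3:**
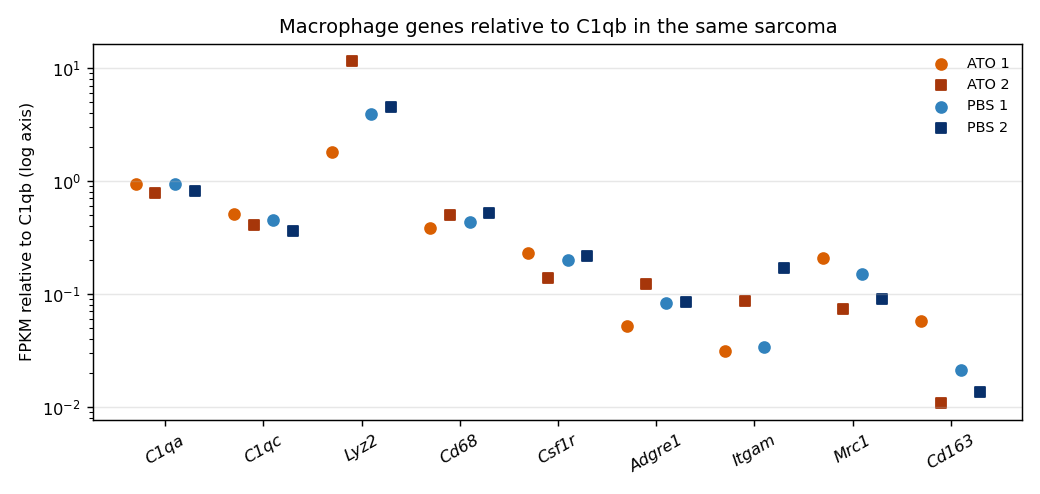
FPKM of each of the other 9 macrophage genes divided by that of C1qb in the same sarcoma, on a log axis, with 1 point for each of the 4 sarcomas. C1qa, Cd68 and C1qc stay within 1.41 times between sarcomas, while Cd163, Itgam and Lyz2 span 5.28 to 6.43 times.

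The rest of the lineage was described with 43 further mononuclear phagocyte genes, of which 42 had enough counts to be tested (Timd4, with at most 13 counts, did not). Of these, 34 had a higher and 8 a lower fitted level in ATO, with a median log2 fold change of 0.70 beside -0.016 for all genes. By edgeR's adjusted p 0 of 42 passed, while DESeq2, fitted to all 43, called 3 (Clec10a, Marco and Retnla). Over all genes DESeq2 called 753 of 18295 (4.12%). In edgeR 4 (Clec10a, Marco, Retnla and Il10) had an unadjusted p under 0.05, beside 8.51% of all genes. On TMM-normalized CPM, 9 of the 42 lay above in both ATO sarcomas, about the share over all genes (19.7%), and 1 (Il34) lay below (20.2% of all genes). On FPKM 7 lay above and 2 below, beside 12.8% and 29.6% of all genes. Without ATO 2 the median was -0.17, so the direction of this list rested on that sarcoma.

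Myeloid transcription factors set the identity of these cells. PU.1 (Spi1), the lineage factor, had FPKM of 24.7 in ATO 1, 37.5 in ATO 2, 30.2 in PBS 1 and 47.6 in PBS 2, a log2 fold change of -0.0089 (SE 0.50). PBS 2, the lowest sarcoma for 8 of the 10 macrophage genes, was thus the highest for Spi1 on FPKM and stood just below ATO 2 on TMM-normalized CPM. Neutrophils also make Spi1. Maf, a factor of mature macrophages, had FPKM of 36.9 and 11.5 in ATO and 30.7 and 9.67 in PBS, with ATO 1 highest and PBS 2 lowest, as for Mrc1. Irf8, a factor of monocytes and dendritic cells, stayed between 5.54 and 10.2. The values of Spi1, Maf and Irf8 overlapped between the groups.

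The 7 Fc receptor and ITAM adaptor genes were all fitted higher in ATO (49.2% of all genes were), with a median of 0.77, and 0 passed the test. On TMM-normalized CPM 3 of the 7 lay above in both ATO sarcomas, beside 19.7% of all genes. On FPKM 2 did, beside 12.8%. Fcgr1, the high-affinity receptor for IgG, had FPKM of 17.3 and 16.9 in ATO and 10.4 and 11.2 in PBS. Its groups were apart with little spread within them, at a log2 fold change of 0.94 (SE 0.38) with adjusted p 0.591 in edgeR. Fcgr2b, the inhibitory Fc receptor, was also apart (39.0 and 58.8 in ATO, 31.4 and 23.0 in PBS), with a log2 fold change of 1.16 (SE 0.53). Fcgr3 lay above in both ATO sarcomas on CPM but not on FPKM. The adaptors Tyrobp (142 and 259 in ATO, 137 and 217 in PBS) and Fcer1g (115 and 180.2 in ATO, 83.6 and 133 in PBS), which carry the signal of such receptors, overlapped. So did the lipid receptor Trem2, with FPKM from 3.85 in PBS 2 to 17.1 in ATO 2.

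All 6 phagocytosis and lysosome genes were fitted higher in ATO (median 0.93, 0 called), as were 49.2% of all genes. Of the 6, 2 lay above in both ATO sarcomas on TMM-normalized CPM (19.7% of all genes) and 1 on FPKM (12.8% of all genes). Laptm5, a lysosome membrane protein of blood cells, had FPKM of 67.6 and 76.5 in ATO and 51.0 and 65.8 in PBS, without overlap. Mertk, the receptor for dying cells, lay above in both ATO sarcomas on CPM only, with FPKM of 29.3 and 15.0 against 16.0 and 13.7. Ctss, a lysosomal protease, followed Lyz2 in standing out in ATO 2, with an FPKM of 1074 there and 224 to 300.4 elsewhere. Cd14, the co-receptor for lipopolysaccharide, did so too, with 166 in ATO 2, 10.3 in ATO 1, 12.9 in PBS 1 and 55.2 in PBS 2.

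Tissue-resident and activation genes held the widest differences of the lineage. Clec10a, a galactose-binding lectin of macrophages and dendritic cells, had FPKM of 110 in ATO 1, 16.7 in ATO 2, 2.77 in PBS 1 and 7.26 in PBS 2. Both ATO sarcomas were higher, and its log2 fold change of 3.83 (SE 1.05) did not pass in edgeR (adjusted p 0.570) but did in DESeq2 (3.85, adjusted p 0.00472). Marco, a scavenger receptor, had 1199 counts in ATO 2 and 10, 3 and 14 in ATO 1, PBS 1 and PBS 2. Its DESeq2 adjusted p of 0.00225 therefore rested on 1 sarcoma, and its edgeR adjusted p was 0.582. Retnla, a secreted protein of interleukin 4-activated macrophages that fat tissue also makes, had 85 and 51 counts in ATO and 0 and 5 in PBS (DESeq2 adjusted p 0.00522, edgeR adjusted p 0.570). Folr2 had FPKM of at least 6.03 in 3 sarcomas and 0.43 in PBS 2, which was also lowest for Cd163 and Mrc1. Lyve1, a receptor of lymphatic endothelium and of some resident macrophages, had 170 in PBS 2 and at most 18.6 elsewhere.

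The 9 activation genes were all fitted higher in ATO (49.2% of all genes were), with a median of 2.27 and 0 called in edgeR. For 4 of them (Arg1, Nos2, Mmp12 and Il1b) ATO 1 was nevertheless the lowest of the 4 sarcomas, and ATO 2 the highest. Spp1 (osteopontin), also made by bone and tumor cells, had FPKM of 1847 in ATO 1, 870 in ATO 2, 564 in PBS 1 and 105 in PBS 2 (log2 fold change 2.24, SE 1.05, edgeR adjusted p 0.621). Arginase 1 (Arg1) was at 0.45 in ATO 1 and 253 in ATO 2, with 48.8 and 21.7 in PBS between them. The nitric oxide synthase gene Nos2 was at 0.50 in ATO 1 and 22.5 in ATO 2, with 1.92 and 22.0 in PBS. Mmp12, a macrophage elastase, was at 0.24 and 51.3 in ATO and 4.70 and 3.01 in PBS, and the cytokine gene Il1b at 0.67 and 130 in ATO and 2.31 and 119 in PBS. In these genes the higher fitted level in ATO came with a high value in ATO 2 alone of the treated sarcomas. Gpnmb, a glycoprotein of lipid-laden macrophages and osteoclasts, had 15.7 and 112 in ATO and 26.9 and 11.8 in PBS. Tnf, which encodes an inflammatory cytokine, had 15.2 in ATO 2 and at most 3.26 in the others. The treated sarcomas thus differed from each other more than from the controls in Arg1.

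Monocyte genes went both ways, 2 fitted higher and 3 lower in ATO with a median of -0.24. Ccr2, the receptor that draws monocytes from blood, had FPKM of 7.24 and 7.50 in ATO and 4.43 and 21.6 in PBS. Chil3 had 318 in ATO 1 and 321 in PBS 2 against 35.8 and 43.1 in ATO 2 and PBS 1. Cx3cr1, the fractalkine receptor, was lowest in ATO 2 at 1.19 and highest in PBS 1 at 18.5. All 5 overlapped between the groups on CPM, while on FPKM Cx3cr1 lay below in both ATO sarcomas (8.41 and 1.19 against 18.5 and 8.65). So did 29.6% of all genes on FPKM. The β2 integrin partners and Ptprc were 2 fitted higher and 2 lower, with a median of -0.0035.

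C1q acts with proteases and substrates that fibroblasts, liver and other cells also make. All 6 of these complement partners were fitted higher in ATO (49.2% of all genes were). Their median log2 fold change was 1.76, and 0 passed edgeR's adjusted p. EdgeR's unadjusted p was under 0.05 for 2 of them (C1ra and C4b), and DESeq2 called 0 of the 6, beside 8.51% and 4.12% of all genes. C4b, cut by the C1 complex, had FPKM of 42.3 and 59.3 in ATO and 9.58 and 19.1 in PBS, fitted as 2.14 on the log2 scale (SE 0.59) with adjusted p 0.570 in edgeR. C1ra, a C1 protease, had 22.3 and 48.5 in ATO and 10.6 and 13.1 in PBS, and C1s1, the other protease, had 56.1 and 118 against 20.3 and 52.3. On FPKM, ATO lay above without overlap in these 3 of the 6 genes, beside 12.8% of all genes. The groups of the C1q chains overlapped on this measure. On TMM-normalized CPM, 4 of the 6 lay above (Serping1 as well), and so did C1qc, beside 19.7% of all genes. C3, on which all complement pathways meet, reached 334 in ATO 2 and 9.86 to 43.9 elsewhere.

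**Figure D4:**
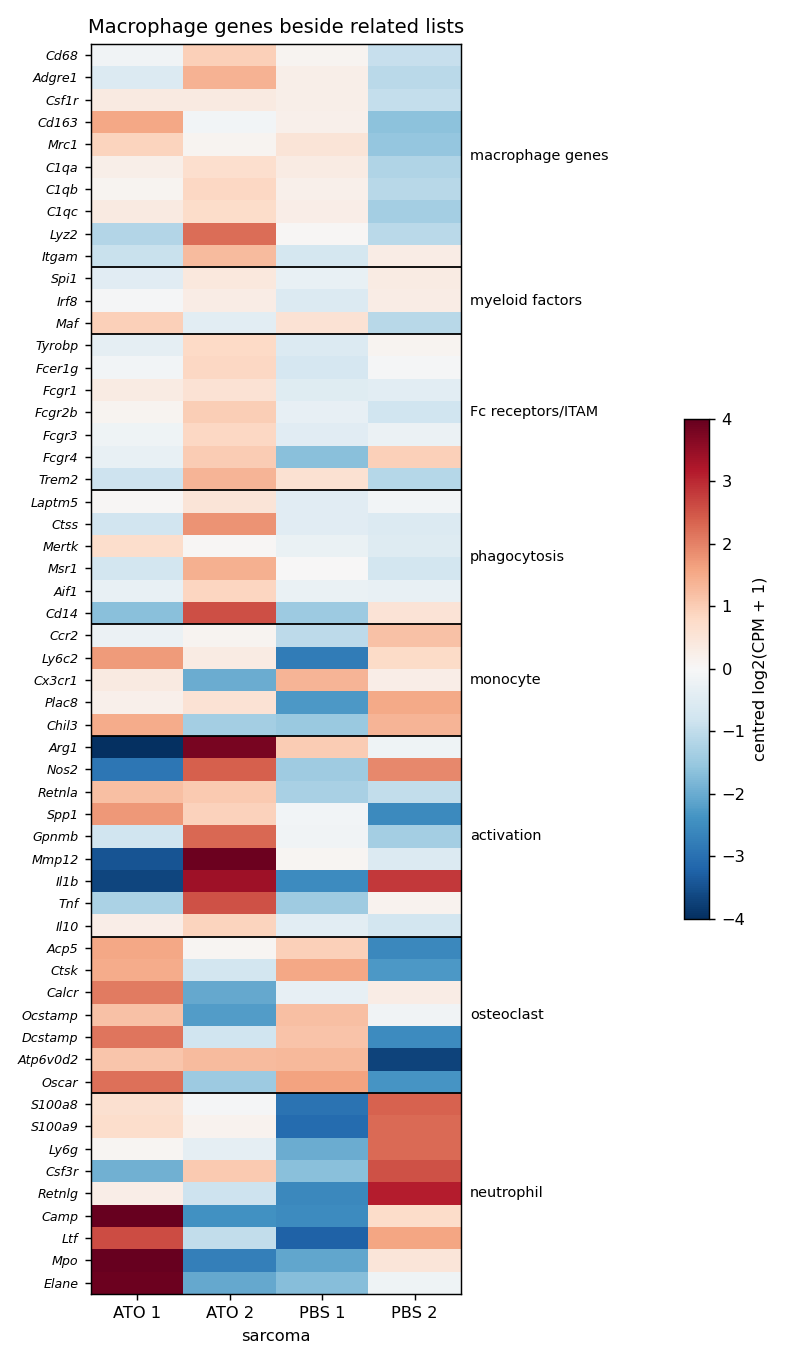
Log2(CPM + 1) of macrophage genes and related lists (rows) in the 4 sarcomas (columns), centred on the mean of each gene, with the colour scale ending at 4 in each direction. Most macrophage genes are low in PBS 2, while Itgam and Spi1 are not.

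Markers of other cells also differed between these sarcomas, and their part in the levels above was not tested. Osteoclasts, which share Csf1r and Cd68 with macrophages, had a summed FPKM over 7 markers of 1079.8 in ATO 1, 253 in ATO 2, 1041 in PBS 1 and 78.2 in PBS 2, with Calcr at 0 in ATO 2. ATO 1 and PBS 1 thus had the largest sums, and they were also highest for Mrc1 and Cd163. Acp5 and Ctsk made up most of the sum in each sarcoma. ATO 1 and PBS 1 held the highest values of every marker but Calcr, which had 0.63 in PBS 1 and 1.14 in PBS 2. Atp6v0d2 was nearly as high in ATO 2 (22.0) as in ATO 1 (24.0). Fibroblast markers had 3857 and 785 in ATO and 3207 and 469 in PBS, most of it Col1a1 and Col1a2 in each sarcoma. The others on the list had another order, Dcn (143) and Lum (137) being highest in ATO 2 and Pdgfra (96.2) in PBS 1. Endothelial markers were fitted lower in ATO in 5 of 5 genes, from 74.2 and 151 in ATO to 102 and 935 in PBS. Adipocyte markers (229 and 1369 against 12.7 and 66.2) and skeletal muscle markers (14779 and 1005 against 7.05 and 128) were above in both ATO sarcomas. On FPKM this held for 5 of 5 adipocyte and 8 of 8 muscle genes, beside 12.8% of all genes. Adipocyte Plin1 and Lep and muscle Tnnc2 were at 0 in PBS 1, and Lep also in PBS 2. Erythroid genes ran from 298 in PBS 1 to 19827 in PBS 2. T and NK cell markers (1.10 to 10.4), B and plasma cell markers (1.24 to 92.7), dendritic cell markers (2.28 to 8.22) and mast cell markers (2.73 to 44.2) were all lowest in PBS 1, where Cd3g, Ncr1 and Xcr1 were at 0. PBS 1 nevertheless held about the level of C1q and Csf1r of the ATO sarcomas.

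The genes whose pattern over the 4 sarcomas came closest to the median pattern of the macrophage genes were, by the root mean square difference of centred log2(CPM + 1), Amotl2, Cped1, Adcy3, Mrpl9, Adi1, Immp1l, Tmem141 and Nacc2. The differences ran from 0.041 to 0.155 on the log2 scale, among 8495 candidates whose FPKM averaged at least 5. Amotl2, the closest, had FPKM of 11.0 in ATO 1, 13.2 in ATO 2, 11.6 in PBS 1 and 4.74 in PBS 2. The median pattern of the macrophage genes stood at 0.17, 0.78, 0.22 and -1.10 in the same order, so that likeness here chiefly meant a low value in PBS 2.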

How the data were processed

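RNA-seq of 4 sarcomas was analysed, 2 of ATO-treated and 2 of PBS mice, in groups that follow the treatment label. The authors trimmed the reads with cutadapt 1.9.1 and aligned them with HISAT2 2.0.1, per the submitters' processing notes, and counted them with HTSeq. The deposited counts are raw read counts per gene. The FPKM that the authors deposited equal count over exon size and total count to within 0.005. Such values do not correct for a few genes that take many reads, and strand and multi-mapping settings are not given in the sources used here. The study's methods name GRCm38, but 2.83% of genes had the position that GENCODE M21 gives, so positions were taken from M21 by identifier. The extraction and library kits named in the labels (TRIzol, SMARTER) differ from those in the methods.

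In R 4.3.3, edgeR 4.0.16 was run on 17188 genes (at least 99.49% of counts) with filterByExpr, TMM (factors 0.822 to 1.11), the quasi-likelihood F-test and a Benjamini-Hochberg threshold of 0.05, after a test on simulated data. Alternatives used DESeq2 1.42.0, other scalings and filters, the replicate number as a block, the omission of each sarcoma, and limma 3.58.1 on log2(FPKM + 1) and log2(FPKM + 0.1). Figures and ratios were made in Python 3.11.15 with matplotlib 3.10.9. All macrophage genes were named, as were genes of the related lists whose FPKM averaged at least 5 or with non-overlapping groups, and the 8 genes most like them. Timd4, markers at 0, Ccl21a and single neutrophil, osteoclast and fibroblast genes were named after their values were seen. Genes and lists were chosen with earlier results of these data known. The replicate numbers come from the titles and name no shared mouse, litter or day. The values of 1 gene in the related lists are not reported here.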

Additional observations from a re-analysis of the deposited data

How the results depend on the processing

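Over 13 alternatives, 0 macrophage genes passed the threshold in any, and all 10 kept a higher fitted level in ATO in each except without ATO 2, where 7 did. With each sarcoma left out, the median log2 fold change of the macrophage genes ranged from 0.35 to 1.75. The genes with ATO above without overlap ranged from 2 to 8 and those below from 0 to 2, with no share over all genes computed for these fits. The median of the 42 further phagocyte genes ranged from -0.17 (without ATO 2) to 1.24. Adgre1 ranged from -0.27 to 1.81, Lyz2 from -0.76 to 2.62 and Itgam from -0.77 to 1.37, each below 0 without ATO 2 (-0.27, -0.76 and -0.77). Such a fit leaves 1 sarcoma in a group, which is assumed to vary like the other group. The 2 macrophage genes above in both ATO sarcomas became 0 on total counts and 0 on the FPKM given to limma. FPKM is also scaled to total counts, so these are nearly the same comparison. The fits on total counts and by limma with log2(FPKM + 1) and log2(FPKM + 0.1) moved the median of all genes to -0.28, -0.18 and -0.27. That of the macrophage genes moved to 0.51, 0.63 and 0.64. DESeq2 called 753 genes and edgeR without a filter 541, where edgeR called 0, and of the further phagocyte genes 3 and 2. The cause was not tested. With the replicate number as a block the median was 0.91 and 0 genes passed (1165 with an unadjusted p under 0.05). The deviations of sarcomas with the same number had a correlation of 5.043e-05. With 2 sarcomas a group this sets only 1 difference against another, so it cannot show whether sarcomas shared a litter or day. The block changed no call, since edgeR called 0 genes without it as well. The effect of counting depth was not tested.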

Other observations

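The genes of the neutrophil list differed in which sarcoma was highest. Mpo, Elane and Camp, named after their values were seen and known from neutrophil precursors, had 3028, 1217 and 2765 counts in ATO 1, 3, 1 and 7 in ATO 2, 18, 7 and 9 in PBS 1, and 209, 58 and 253 in PBS 2. Ltf was also highest in ATO 1, with 3562 counts there and 1883 in PBS 2. S100a8, S100a9, Ly6g, Csf3r and Retnlg were highest in PBS 2. Over the 9 genes listed the log2 fold changes had a median of -0.86, with 4 fitted higher and 5 lower in ATO, and 0 passed edgeR's adjusted p.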
